A study of Homo sapiens with 18 samples.

Results

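The 9 genes described here encode the factors that put the cohesin ring on chromatin, take it off, lock it in place or stop it: NIPBL, MAU2, PDS5A, PDS5B, CDCA5, ESCO1, ESCO2, HDAC8 and CTCF. They were picked by name and function out of the 23399 genes of the table. All 9 passed the filter on low values and are among the 14993 genes tested.

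Cohesin is a ring of SMC1A, SMC3, RAD21 and STAG1 or STAG2 that encircles DNA. NIPBL and MAU2 form the loader and help the ring extrude loops, and the zinc finger protein CTCF halts it at loop borders. PDS5A and PDS5B bind the ring and act in its release with WAPL, while ESCO1 (through the cell cycle) and ESCO2 (mainly in S phase) acetylate SMC3, which lets sororin, the product of CDCA5, block release and hold sister chromatids together. HDAC8 removes the acetyl mark from SMC3 so that the ring can be used again.

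The cells were U2OS-MycER, a line made from human osteosarcoma U2OS cells by a retrovirus that carries Myc fused to the estrogen receptor (MycER). The fusion protein is held inactive until 4-hydroxytamoxifen (OHT) is given, and the endogenous Myc gene is still present. Cells received either a pool of siRNAs against RAD21 (siRAD21) or an siRNA against Renilla luciferase (siCtrl), together with OHT at 400 nM or with ethanol, and were collected after 24 or 48 h. All 8 groups carry MycER and all were transfected, so there is no group free of either. The siCtrl and siCtrl OHT groups at 48 h have 3 libraries each and the other 6 groups have 2, while the methods speak of 2 biological replicates throughout. The comparisons ask how RNA levels respond to the loss of RAD21, to active MycER, and to both at once.

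Levels are given in eRPKM as deposited, which the paper describes as exonic reads scaled to transcript length and to mapped reads. The depths recovered from these values were 9647501 to 12678599 reads per library after removal of duplicates. Reads recovered for the genes made up 99.98% of the depth, so the depth counts reads in genes and not all mapped reads. The least covered of the 9 genes, HDAC8, still rests on 335 to 661 reads per library. The siRAD21 OHT libraries at 48 h differed by no more than random sampling would give (chi-square per gene 0.982, z = -1.44 against sampling alone). The other pairs of replicates ran from 1.037 to 3.937. The lowest was the siRAD21 pair at 24 h (1.037, z = 2.95), whose libraries were still counted as separate samples. The siRAD21 OHT libraries at 48 h were counted as 1 sample in means, without an SD, although the fit holds both. SEs and adjusted p of comparisons with this group treat them as separate samples and may therefore be too small. The variance is pooled over the 8 groups, so the spread of this pair also enters the SEs of the other comparisons. RAD21 itself stood at 69.3 to 72.2 eRPKM in siCtrl and 18.1 to 18.6 in siRAD21 cells at 24 h, and at 89.0 to 96.9 against 11.2 to 11.3 at 48 h. The mesenchymal markers VIM (105 to 129 eRPKM) and SPARC (60.6 to 86.4) were present in every library, while COL1A2 was absent or nearly so (0 to 0.109).

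Fold changes are differences of log2(eRPKM + 0.5), which slightly understates changes of low genes, from a limma fit of all 18 libraries with Benjamini-Hochberg adjustment over all genes tested. A gene is said here to rise or fall when its adjusted p was below 0.05. It is called a differentially expressed gene (DEG) when its log2 fold change was also above 0.5 or below -0.5. Counts of genes at an unadjusted p below 0.05 are given without the share of all genes at that level. These counts therefore cannot be judged against a background.

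In untreated control cells the 9 transcripts covered a wide range. In siCtrl cells at 48 h CDCA5 was the most abundant at 70.4 ± 3.50 eRPKM (mean ± SD, n = 3), followed by CTCF at 41.7 ± 0.885 and PDS5A at 35.8 ± 0.756. ESCO2 (31.4 ± 0.717) and ESCO1 (20.8 ± 2.20) were intermediate, and NIPBL (15.6 ± 1.84) and HDAC8 (11.9 ± 0.884) were lower. MAU2 (7.65 ± 0.440) and PDS5B (7.20 ± 0.385) closed the order. The values are per length and can be compared between genes only as far as the exon lengths used hold. Neighbours in this order did not share values in any library, except MAU2 and PDS5B, whose libraries overlapped.

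**Figure D1:**
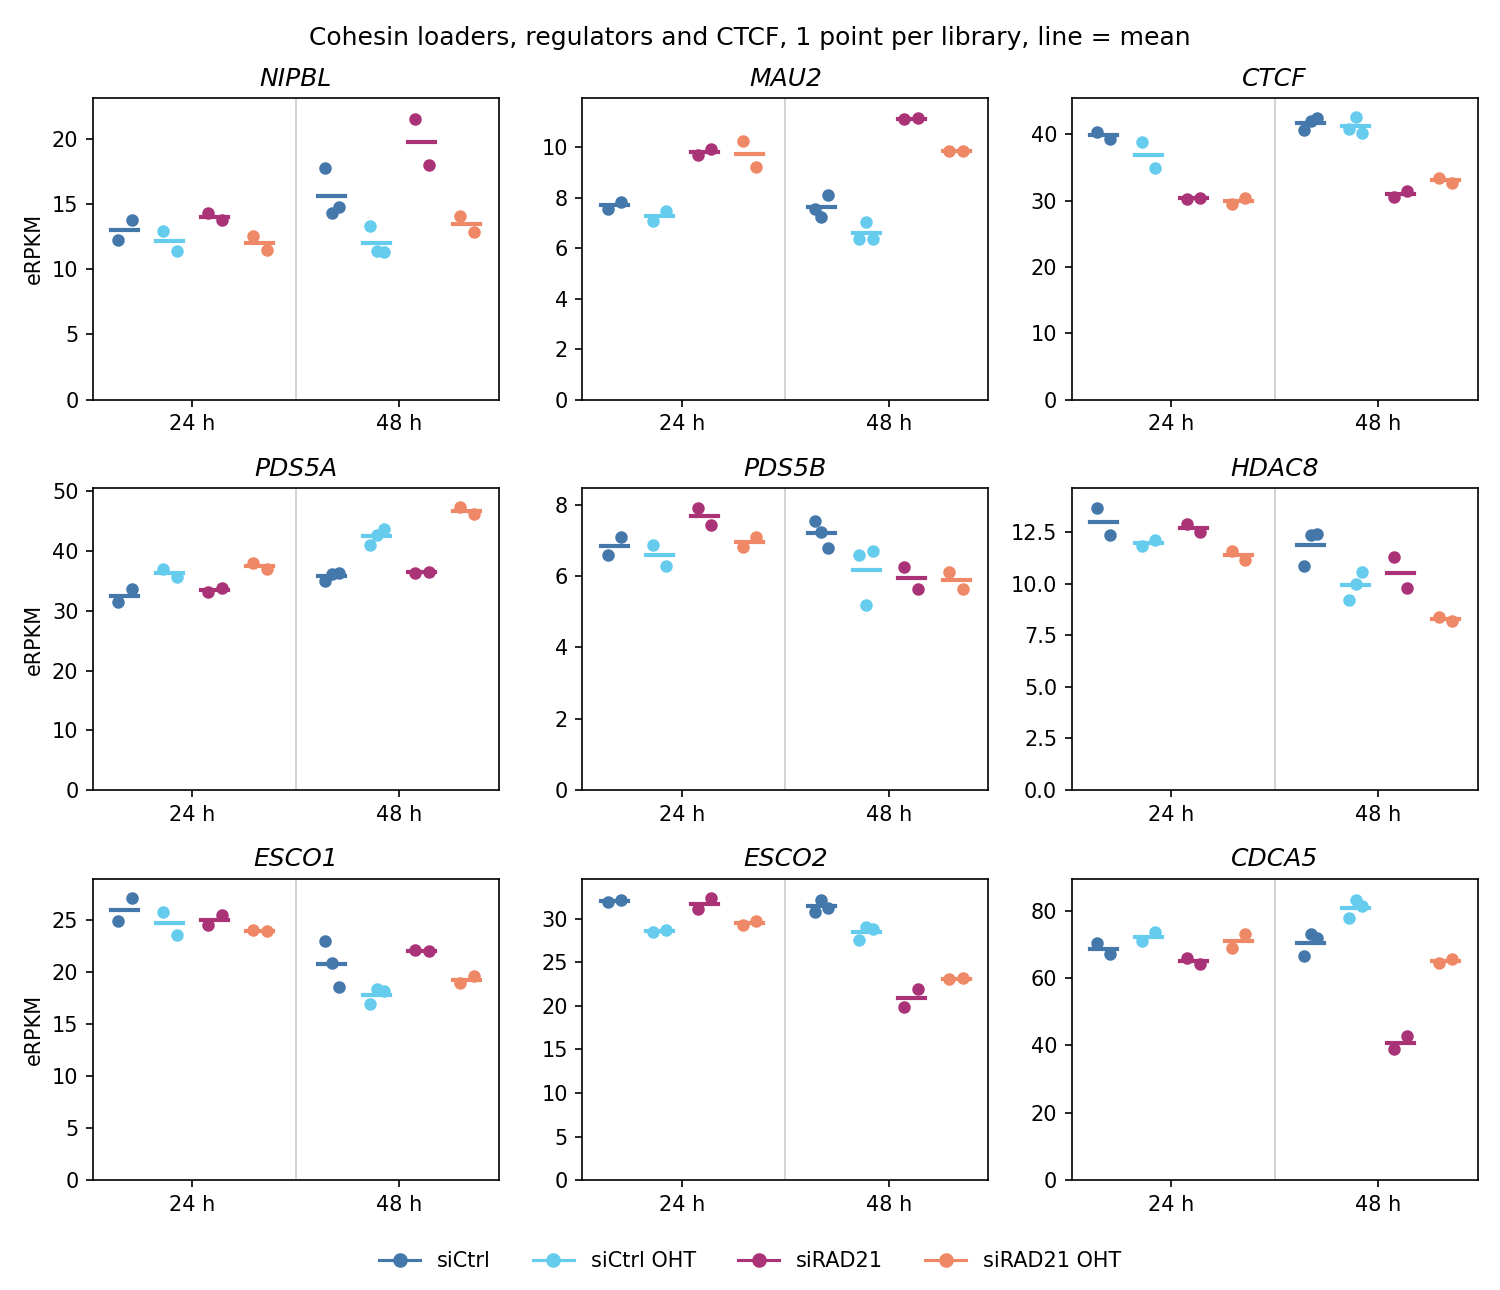
Level of each of the 9 genes in eRPKM (vertical axes, each from 0) in the 18 libraries, by group and time, with 1 point per library and a line at the mean of the group. CDCA5 and ESCO2 are low in siRAD21 cells at 48 h (38.8 and 42.8, and 19.9 and 21.9 eRPKM), and CTCF is lower in all siRAD21 libraries (29.5 to 33.5) than in all siCtrl libraries (34.9 to 42.6).

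With loss of RAD21, 2 of the 9 genes changed at 24 h and 6 at 48 h, shares close to those of all genes. At 24 h MAU2 rose and CTCF fell, 2 of the 9 genes where 25.8% of all genes tested passed the same adjusted p. None was a DEG by limma (8.43% of all genes), none by voom on reads recovered from the values, and 2 of the 9 had an unadjusted p below 0.05. At 48 h NIPBL and MAU2 rose and PDS5B, CDCA5, ESCO2 and CTCF fell, 6 of 9 against a background of 57.7%. The DEGs among them were MAU2, CDCA5 and ESCO2, 3 of 9 where 23.7% of all genes were DEGs. The median log2 fold change of the 9 genes at 48 h was -0.17, and that of all genes tested was -0.01.

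Activation of MycER with OHT in siCtrl cells gave changes in several of the 9 genes but no DEG among them. At 24 h PDS5A rose and ESCO2 fell, 2 of 9 where 26.5% of all genes passed. At 48 h PDS5A and CDCA5 rose and NIPBL, MAU2, ESCO1, ESCO2 and HDAC8 fell, 7 of 9 against 53.3% of all genes. With the replicate block, which pairs these libraries, PDS5B also fell, which makes 8. None of the 9 was a DEG at either time by limma or by voom (backgrounds 8.78% and 17.9%). In the limma fit 3 genes at 24 h and 8 at 48 h had an unadjusted p below 0.05. The share of all genes at that unadjusted level is not given, so these counts say nothing of an excess.

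In siRAD21 cells OHT gave 1 rise at 24 h, that of PDS5A (35.2% of all genes passed). At 48 h PDS5A, CDCA5 and ESCO2 rose and NIPBL, ESCO1 and HDAC8 fell, 6 of 9 against 60.4%. ESCO1 passed narrowly, and did not pass with the replicate block (adjusted p = 0.0598, limma and Benjamini-Hochberg). CDCA5 and NIPBL were the DEGs at 48 h, 2 of 9 where 28.6% of all genes were DEGs. At 24 h none was a DEG by limma or voom (11.9% of all genes), and 3 of the 9 had an unadjusted p below 0.05. The 6 comparisons named so far share siCtrl or siRAD21 libraries with each other, so their values are set side by side without a test of likeness. The summed level of 8 markers of other cell types was 13.2 to 15.4 eRPKM in siCtrl OHT and 6.57 to 7.45 in siCtrl cells at 48 h, and 8.93 to 9.06 in siRAD21 OHT against 6.40 to 7.49 in siRAD21 cells. EPCAM carried this (2.56 to 12.9 eRPKM over the 18 libraries). From siRAD21 to siRAD21 OHT cells at 48 h its mean went from 3.19 to 7.06 eRPKM, while CDH1 (1.14 to 0.713), CDH5 (1.08 to 0.389), PTPRC (0.134 to 0.0646), PECAM1 (0.680 to 0.542) and SOX10 (0.696 to 0.234) went the other way. CD3E and ALB were at or near 0 throughout (at most 0.082 and 0.045). The summed level of 6 mesenchymal markers was lower with OHT at 48 h. It was 275 to 322 eRPKM in siCtrl and 222 to 251 in siCtrl OHT cells. In siRAD21 cells it was 316 in both libraries, and 236 to 238 with OHT. COL1A1 and FN1 carried most of this. From siRAD21 to siRAD21 OHT cells the mean of COL1A1 went from 61.4 to 16.7 eRPKM and that of FN1 from 49.5 to 22.3. SPARC and RUNX2 were also lower, while VIM went from 115 to 120. COL1A1 ranged from 28.1 to 59.1 eRPKM within the siCtrl libraries at 48 h. All libraries come from the U2OS-MycER line, and a link of these marker levels to the OHT results was not tested.

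**Figure D2:**
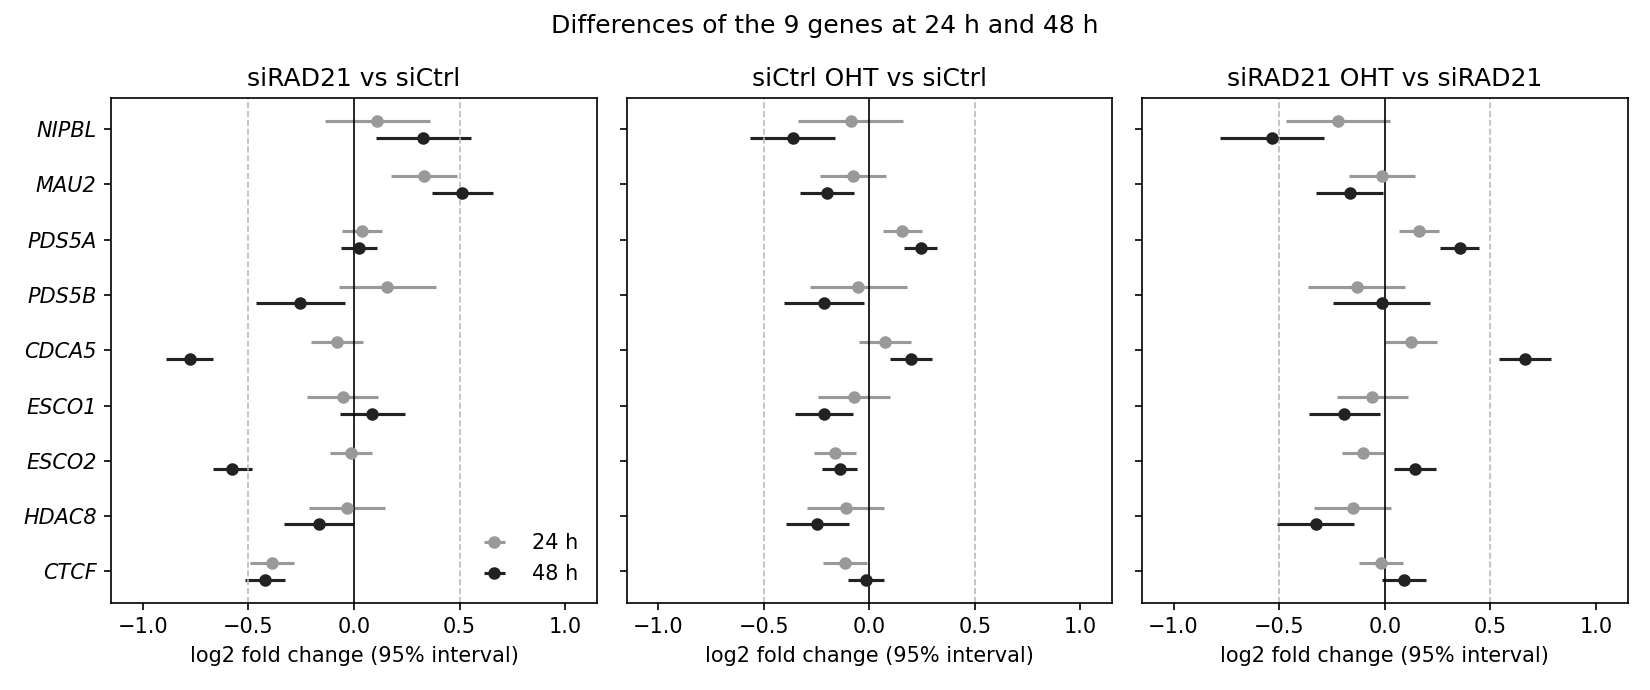
Log2 fold change of each gene (horizontal axis, points) with its 95% interval (bars) for siRAD21 against siCtrl, siCtrl OHT against siCtrl and siRAD21 OHT against siRAD21, at 24 h (grey) and 48 h (black). Dashed lines mark -0.5 and 0.5. In siRAD21 against siCtrl cells at 48 h CDCA5 (-0.78) and ESCO2 (-0.58) lie to the left, and MAU2 (0.51) lies at the right-hand line.

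MAU2 rose in RAD21-depleted cells at both times, with and without OHT, and NIPBL at 48 h without OHT. MAU2, the partner that stabilises NIPBL (gene on the plus strand of chromosome 19, chr19:19431638-19469563, GRCh37), read 7.57, 7.25 and 8.12 eRPKM in the siCtrl libraries at 48 h and 11.1 and 11.1 in the siRAD21 libraries. All siRAD21 values were above all siCtrl values, a difference of 0.51 on the log2 scale (standard error, SE, 0.067, adjusted p = 1.55e-05, limma and Benjamini-Hochberg). The same difference at 24 h was 7.54 and 7.85 against 9.70 and 9.93 eRPKM, or 0.33 on the log2 scale (SE 0.073). The 48 h value sits at the fold change threshold. It was 0.48 without siCtrl 48 h replicate 2 and 0.49 with a pseudocount of 1 or with quantile normalization, so that MAU2 was then no DEG, although its adjusted p stayed below 0.05.

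OHT did not bring MAU2 back to its control level. At 48 h the siCtrl OHT libraries had 6.37, 7.06 and 6.36 eRPKM and the siRAD21 OHT libraries 9.85 and 9.86. Between these groups MAU2 rose by 0.55 on the log2 scale (SE 0.067, adjusted p = 1.41e-05, limma and Benjamini-Hochberg), and was the single DEG of the 9 genes there (16.2% of all genes). With quantile normalization this value was 0.49. The corresponding rise at 24 h was 0.40 (SE 0.073). Relative to siCtrl without OHT, siRAD21 OHT cells had higher MAU2 at 24 h (0.32) and at 48 h (0.35).

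NIPBL, which carries the loader activity and is the gene most often mutated in Cornelia de Lange syndrome, lies on the plus strand at chr5:36876871-37066515 (GRCh37). Its libraries were more spread than those of MAU2, and at 48 h replicate 1 was the highest in every group. At 48 h siCtrl cells had 17.7, 14.3 and 14.8 eRPKM, siCtrl OHT cells 13.3, 11.4 and 11.3, siRAD21 cells 21.5 and 17.99, and siRAD21 OHT cells 14.1 and 12.8. The levels were thus highest in siRAD21 cells and lowest with OHT. NIPBL rose by 0.33 with siRAD21 (SE 0.105, adjusted p = 0.0154), and with OHT it fell by 0.36 in siCtrl cells (SE 0.094, adjusted p = 0.00485) and by 0.53 in siRAD21 cells (SE 0.115, adjusted p = 0.00118, limma and Benjamini-Hochberg). The last value was -0.41 without siRAD21 48 h replicate 1 and -0.47 without siRAD21 OHT 48 h replicate 2, both short of a DEG. In siRAD21 OHT against siCtrl cells the difference was -0.20, with a 95% interval of -0.43 to 0.02 (adjusted p = 0.11). With the replicate block this difference was -0.24 and passed (adjusted p = 0.0123, limma and Benjamini-Hochberg). Between siRAD21 OHT and siCtrl OHT cells it was 0.16 (95% interval -0.07 to 0.39, adjusted p = 0.24). None of the NIPBL differences at 24 h had an adjusted p below 0.05 without the block. With it, the -0.22 of siRAD21 OHT against siRAD21 cells at 24 h passed (adjusted p = 0.0379, limma and Benjamini-Hochberg).

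The PDS5 paralogs differed in level and in response. PDS5A (minus strand, chr4:39824483-39979576, GRCh37) was close to the same in siCtrl cells (34.97, 36.2 and 36.3 eRPKM) and siRAD21 cells (36.4 and 36.6) at 48 h, with a difference of 0.03 and a 95% interval of -0.06 to 0.11. With OHT it read 41.1, 42.8 and 43.7 eRPKM in siCtrl cells and 47.3 and 46.2 in siRAD21 cells, above every library without OHT. PDS5A rose with OHT by 0.24 in siCtrl cells (SE 0.036, adjusted p = 5.88e-05) and by 0.35 in siRAD21 cells (SE 0.044, adjusted p = 9.58e-06, limma and Benjamini-Hochberg). The difference between the 2 responses was 0.11, with a 95% interval of -0.01 to 0.23. The rises at 24 h were 0.16 and 0.16, with adjusted p of 0.0163 and 0.0109 in the same limma fit with Benjamini-Hochberg adjustment.

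PDS5B (plus strand, chr13:33160589-33352157, GRCh37) was the scarcer paralog. At 48 h it read 7.56, 7.24 and 6.79 eRPKM in siCtrl cells, 6.26 and 5.65 in siRAD21 cells, 6.59, 5.19 and 6.70 in siCtrl OHT cells, and 6.12 and 5.65 in siRAD21 OHT cells. The siCtrl libraries were above all the others. PDS5B fell by 0.25 with siRAD21 (SE 0.098, adjusted p = 0.0382) and by 0.27 in siRAD21 OHT against siCtrl cells (SE 0.098, adjusted p = 0.0285, limma and Benjamini-Hochberg). The -0.22 with OHT in siCtrl cells missed the threshold, with an adjusted p of 0.0517 by limma and Benjamini-Hochberg. It passed with the replicate block (adjusted p = 0.0399), and PDS5B was lower with OHT in each of the 3 pairs of same-numbered libraries. At 24 h the siRAD21 libraries (7.92 and 7.44) were instead above the siCtrl libraries (6.58 and 7.09), by 0.16 (SE 0.107), which did not pass.

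HDAC8, the SMC3 deacetylase (minus strand, chrX:71549366-71792951, GRCh37), was lowest where both treatments were combined. At 48 h it read 10.9, 12.4 and 12.4 eRPKM in siCtrl cells, 9.23, 10.0 and 10.6 in siCtrl OHT cells, 11.3 and 9.81 in siRAD21 cells, and 8.38 and 8.19 in siRAD21 OHT cells. The siRAD21 OHT libraries were below all others. HDAC8 fell with OHT by 0.25 in siCtrl cells (SE 0.069, adjusted p = 0.00792) and by 0.33 in siRAD21 cells (SE 0.084, adjusted p = 0.00404). From siCtrl to siRAD21 OHT cells it fell by 0.49 (SE 0.077, adjusted p = 7.05e-05, limma and Benjamini-Hochberg), and with siRAD21 alone the difference of -0.17 was not called (adjusted p = 0.08). The -0.49 is close to the fold change threshold and became -0.55 without siCtrl 48 h replicate 1 and -0.51 without siRAD21 OHT 48 h replicate 1, which makes HDAC8 a DEG. Of the 22888 exon bases of HDAC8 in the GRCh37 annotation, 5.21% are shared with another gene, and the library kit does not mark strand. The exon length recovered from the deposited values was 4165 bases, so the shared part of the bases counted is not known.

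When both treatments were compared with neither at 48 h (siRAD21 OHT against siCtrl), MAU2 and PDS5A rose and PDS5B, ESCO2, HDAC8 and CTCF fell, 6 of 9 where 59.7% of all genes passed. At 24 h MAU2 and PDS5A rose and CTCF fell, 3 of 9 against 34.4%. None was a DEG by limma at either time (13.1% of all genes at 24 h and 28% at 48 h). With an unadjusted p below 0.05 there were 5 genes at 24 h and 7 at 48 h, and voom called 0 and 1, the latter being HDAC8. The share of all genes by either of these measures is not given, so these counts say nothing of an excess.

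The acetyltransferase genes parted at 48 h. ESCO2 (plus strand, chr8:27629466-27670157, GRCh37) read 30.8, 32.2 and 31.3 eRPKM in siCtrl cells and 19.9 and 21.9 in siRAD21 cells, with no overlap. ESCO2 fell by 0.58 on the log2 scale (SE 0.043, adjusted p = 6.70e-08, limma and Benjamini-Hochberg). At 24 h the libraries overlapped (31.9 and 32.1 against 31.1 and 32.3 eRPKM). The effects of siRAD21 on ESCO2 at 48 and 24 h differed by -0.56 (SE 0.063, adjusted p = 4.25e-05, limma and Benjamini-Hochberg), and -0.49 without siRAD21 48 h replicate 1. Of the 9 genes, ESCO2 and CDCA5 had a difference between the times that passed (21.6% of all genes did), and both were DEGs by it (10.7%). PDS5B had the next largest, -0.41, which did not pass.

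At 48 h OHT acted on ESCO2 in opposite directions in the siRNA groups, but not at 24 h. In siCtrl cells it fell by 0.16 at 24 h (28.5 and 28.7 eRPKM with OHT) and by 0.14 at 48 h (27.5, 29.1 and 28.8 eRPKM). In siRAD21 cells at 24 h the values were 29.3 and 29.7 eRPKM with OHT and 31.1 and 32.3 without, a difference of -0.10 that did not pass (adjusted p = 0.102, limma and Benjamini-Hochberg). In siRAD21 cells at 48 h it rose by 0.14, to 23.0 and 23.2 eRPKM (SE 0.047, adjusted p = 0.0167, limma and Benjamini-Hochberg). The interaction of siRNA and OHT at 48 h was 0.28 (SE 0.060, adjusted p = 0.0058, limma and Benjamini-Hochberg). The siRAD21 OHT level stayed below that of siCtrl cells by 0.43 (95% interval -0.52 to -0.34) and below that of siCtrl OHT cells by 0.29.

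ESCO1 (minus strand, chr18:19109245-19180845, GRCh37) did not follow ESCO2. It read 23.0, 20.9 and 18.6 eRPKM in siCtrl cells at 48 h and 22.1 and 22.1 in siRAD21 cells, which overlapped. The difference was 0.09, with a 95% interval of -0.07 to 0.24. With OHT ESCO1 read 17.0, 18.4 and 18.2 eRPKM in siCtrl cells, a fall by 0.21 (SE 0.064, adjusted p = 0.0118, limma and Benjamini-Hochberg). In siRAD21 cells it read 19.0 and 19.6 with OHT, a fall by 0.19 (SE 0.079, adjusted p = 0.0489, limma and Benjamini-Hochberg). This second fall is borderline. It did not pass with the replicate block (adjusted p = 0.0598), and both fits treat the siRAD21 OHT libraries as separate samples. ESCO1 also fell between 24 and 48 h in siCtrl cells, from 24.9 and 27.1 eRPKM, by 0.32 (SE 0.072, adjusted p = 0.00275, limma and Benjamini-Hochberg). Over the same time PDS5A rose by 0.14, and these were 2 of the 9 genes where 45.2% of all genes passed. Centring each library on its median left both past the adjusted p (ESCO1 -0.23, PDS5A 0.22) but took the share of higher values among the DEGs of this comparison from 44.5% to 63.4%.

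CDCA5 showed the largest changes of the 9 genes with siRAD21 at 48 h and with OHT in siRAD21 cells at 48 h. The gene of sororin lies on the minus strand at chr11:64833772-64851636 (GRCh37). At 48 h its libraries had 66.4, 72.9 and 71.8 eRPKM in siCtrl cells, 38.8 and 42.8 in siRAD21 cells, 64.3 and 65.6 in siRAD21 OHT cells, and 77.7, 83.0 and 81.3 in siCtrl OHT cells. The 4 groups did not overlap. CDCA5 fell by 0.78 with siRAD21 (SE 0.052, adjusted p = 2.48e-08) and rose by 0.66 when OHT was added to siRAD21 cells (SE 0.057, adjusted p = 3.16e-07, limma and Benjamini-Hochberg). The second value was 0.49 with quantile normalization and then no DEG. Against siCtrl cells, siRAD21 OHT cells were at -0.11, with a 95% interval of -0.23 to -0.0018 (adjusted p = 0.0744), and against siCtrl OHT cells at -0.31 (SE 0.052, adjusted p = 2.43e-04).

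In siCtrl cells the rise of CDCA5 with OHT was 0.20 (SE 0.047, adjusted p = 0.00279, limma and Benjamini-Hochberg). The interaction of siRNA and OHT on CDCA5 at 48 h was 0.47 (SE 0.074, adjusted p = 8.08e-04, limma and Benjamini-Hochberg). It was 0.51 without siCtrl 48 h replicate 1 and 0.54 without siRAD21 48 h replicate 2, past the fold change threshold. CDCA5 and ESCO2 were the 2 of 9 genes with an interaction past the adjusted p at 48 h, where 17.3% of all genes passed. None was a DEG by limma or voom (7.3% of all genes), and the 2 were also those with an unadjusted p below 0.05. At 24 h the interaction passed for 0 of the 9 and 0% of all genes, by limma, with 0 of the 9 at an unadjusted p below 0.05 and 0 called by voom. The 24 h levels of CDCA5 were 70.5 and 67.0 eRPKM in siCtrl and 65.8 and 64.1 in siRAD21 cells, and the effects at both times differed by -0.70 (SE 0.077, adjusted p = 3.63e-05, limma and Benjamini-Hochberg).

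Genes of S phase moved with CDCA5 at 48 h, and with ESCO2 except where OHT was given to siCtrl cells. The summed level of 10 S phase genes was 409 to 423 eRPKM in siCtrl, 238 to 254 in siRAD21, 364 to 369 in siRAD21 OHT and 435 to 455 in siCtrl OHT cells at 48 h, and 374 to 379 in siRAD21 against 387 to 415 in siCtrl cells at 24 h. With OHT in siCtrl cells at 48 h, 6 of these 10 genes rose and 2 fell, while ESCO2 fell by 0.14. In bulk RNA fewer cells in a phase and less RNA per cell cannot be told apart. The removal of duplicates in the deposited data sets an upper limit to the reads of a gene, and CDCA5 stood at 21.2 to 43.7% of it, more than any other of the 9, which narrows its differences. With that removal undone the interaction on CDCA5 was 0.51.

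The bases just upstream of CDCA5, MAU2 and CTCF are shown because, of the genes with a sequence at hand, these had the largest differences with siRAD21 at 48 h, downward for CDCA5 and CTCF and upward for MAU2. They are the 250 bases before the start of each gene in the RefSeq promoter table of GRCh38.p14, which holds 7 of the 9 genes and not ESCO1 or ESCO2. Capitals mark matches, on either strand, to any of 6 motifs. CACGTG is the E-box that Myc binds. GCGGGAA is a form of the E2F site, as the motif TTTCGCG is too. The motif TTCGAA is a form of the CHR element of cell cycle genes, as the motif TTTGAA is too. The last motif, CCAAT, is bound by NF-Y. The CDCA5 sequence is the minus strand of chr11:65084041-65084290, the MAU2 sequence the plus strand of chr19:19320579-19320828, and the CTCF sequence the plus strand of chr16:67562276-67562525.
CDCA5: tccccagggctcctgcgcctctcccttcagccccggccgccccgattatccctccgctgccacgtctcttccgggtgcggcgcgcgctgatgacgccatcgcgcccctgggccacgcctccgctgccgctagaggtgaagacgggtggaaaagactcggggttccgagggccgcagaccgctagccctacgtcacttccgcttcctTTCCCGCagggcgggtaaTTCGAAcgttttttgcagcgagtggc
MAU2: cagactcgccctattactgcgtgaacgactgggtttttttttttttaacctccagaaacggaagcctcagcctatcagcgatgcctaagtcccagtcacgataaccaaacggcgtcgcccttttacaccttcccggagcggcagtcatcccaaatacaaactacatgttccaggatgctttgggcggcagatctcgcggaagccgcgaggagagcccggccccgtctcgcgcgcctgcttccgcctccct
CTCF: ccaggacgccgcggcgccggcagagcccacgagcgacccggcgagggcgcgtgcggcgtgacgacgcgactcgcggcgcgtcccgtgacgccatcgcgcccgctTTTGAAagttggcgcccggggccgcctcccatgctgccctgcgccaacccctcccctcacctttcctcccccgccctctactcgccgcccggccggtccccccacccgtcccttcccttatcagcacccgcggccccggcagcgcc
In CDCA5 the reverse complement of GCGGGAA begins 44 bases upstream of the start and TTCGAA begins 26 bases upstream. The former occurs in 5.52% and the latter in 1.19% of the 35116 promoters of the table cut to the same length. CTCF holds TTTGAA 146 bases upstream (13.3% of promoters), and MAU2 holds none of the 6 motifs. Of the other genes in the table, PDS5A has GCGGGAA 210 and 192 bases upstream and CCAAT 118 bases upstream, PDS5B has CCAAT 29 bases upstream (32% of promoters), and NIPBL and HDAC8 have none. CACGTG is in none of the 7 sequences and in 6.34% of all promoters, and TTTCGCG is likewise in none of the 7 and in 1.1% of all. A match of letters does not show a site in use, and the absence of these letters concerns this window alone.

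CTCF fell with siRAD21 at each time and with or without OHT. The gene lies on the plus strand at chr16:67596370-67673080 (GRCh37). Its libraries had 40.4 and 39.3 eRPKM in siCtrl and 30.3 and 30.4 in siRAD21 cells at 24 h, and 40.7, 42.0 and 42.4 against 30.5 and 31.5 at 48 h. The fall was 0.39 at 24 h (SE 0.049, adjusted p = 5.18e-05) and 0.42 at 48 h (SE 0.044, adjusted p = 2.18e-06, limma and Benjamini-Hochberg). Both stayed short of the fold change threshold.

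With OHT, CTCF read 38.8 and 34.9 eRPKM in siCtrl and 29.5 and 30.4 in siRAD21 cells at 24 h, and 40.8, 42.6 and 40.2 against 33.5 and 32.6 at 48 h. The fall of CTCF between these groups was 0.29 at 24 h (SE 0.049, adjusted p = 7.22e-04) and 0.31 at 48 h (SE 0.044, adjusted p = 5.59e-05, limma and Benjamini-Hochberg). In this comparison MAU2 rose and CTCF fell at 24 h, 2 of 9 against 20% of all genes. At 48 h MAU2 and PDS5A rose and CDCA5, ESCO2, HDAC8 and CTCF fell, 6 of 9 against 45.2%. None was a DEG at 24 h by limma or voom (6.47% of all genes), and the 2 that passed were those with an unadjusted p below 0.05. OHT alone left CTCF at -0.02 in siCtrl cells and at 0.09 in siRAD21 cells at 48 h (95% interval -0.01 to 0.19). Of the 10106 exon bases of CTCF in the annotation, 13.1% are shared with another gene, and the kit does not mark strand. The exon length recovered from the deposited values was 3941 bases, so the shared part of the bases counted is not known.

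The rest of the pathway was read from lists of genes, chosen by function. With siRAD21 at 48 h, 23.7% of all genes were DEGs, 11.2% were DEGs and lower, and 57.7% passed the adjusted p. Of the cohesin ring, RAD21 was the single DEG of 5 genes, and the median of the list was -0.04. Of 6 genes of release, protection and cleavage, 3 were DEGs and lower (median -0.43): AURKB (-0.77), the kinase of the chromosomal passenger complex, SGOL1 (-0.68), the protector of centromeric cohesin, and ESPL1 (-0.51), the separase that cuts RAD21. WAPAL, the release factor WAPL, fell by 0.24 and was no DEG. Of 6 other architecture factors, such as YY1 and ZNF143, 0 were DEGs by limma and 2 fell at the adjusted p (median -0.13).

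Genes for cohesion establishment at replication forks were lower. At 48 h with siRAD21, 5 of 8 were DEGs and lower, where 11.2% of all genes were, and their median was -0.85. The largest falls were CLSPN (-0.97) and WDHD1 (-0.93), fork proteins, CHTF18 (-0.92), a clamp loader subunit, and DSCC1 (-0.85), its partner. Of 10 S phase genes 8 were DEGs and lower (median -0.72), among them GINS2 (-1.26) and MCM10 (-1.21), and of 10 G2/M genes 2 were, KIF11 (-0.74) and CDK1 (-0.51), though all 10 fell (median -0.42). At 24 h the 3 lists had 0 DEGs by limma and medians of -0.07, -0.09 and -0.08, and 0, 1 and 1 of their genes fell at the adjusted p.

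When OHT was added to siRAD21 cells, 3 of the 8 fork genes and 5 of the 10 S phase genes were DEGs and higher at 48 h (12.4% of all genes), with medians of 0.37 and 0.57. TIPIN (1.39), of the fork protection complex, WDHD1 (0.61) and DSCC1 (0.58) were the fork genes. The G2/M list had 0 DEGs and a median of 0.27, with all 10 genes past the adjusted p. Of the release list AURKB alone was a DEG (0.57), and WAPAL was at -0.02. In siCtrl cells the same treatment gave medians of 0.01 for the fork genes, 0.13 for S phase and 0.05 for G2/M, with 1, 0 and 0 DEGs. With siRAD21 the fork genes ran from -0.97 (CLSPN) to 0.02 (CHTF8) and the S phase genes from -1.26 (GINS2) to -0.33 (PCNA). CDCA5 (-0.78), ESCO2 (-0.58) and CTCF (-0.42) lay within both ranges. The fork range is wide and also took in PDS5B (-0.25) and HDAC8 (-0.17). CTCF was unlike the S phase list elsewhere. With siRAD21 at 24 h it was at -0.39, where the S phase median was -0.085. With OHT in siRAD21 cells at 48 h it was at 0.09, where the S phase median was 0.57.

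**Figure D3:**
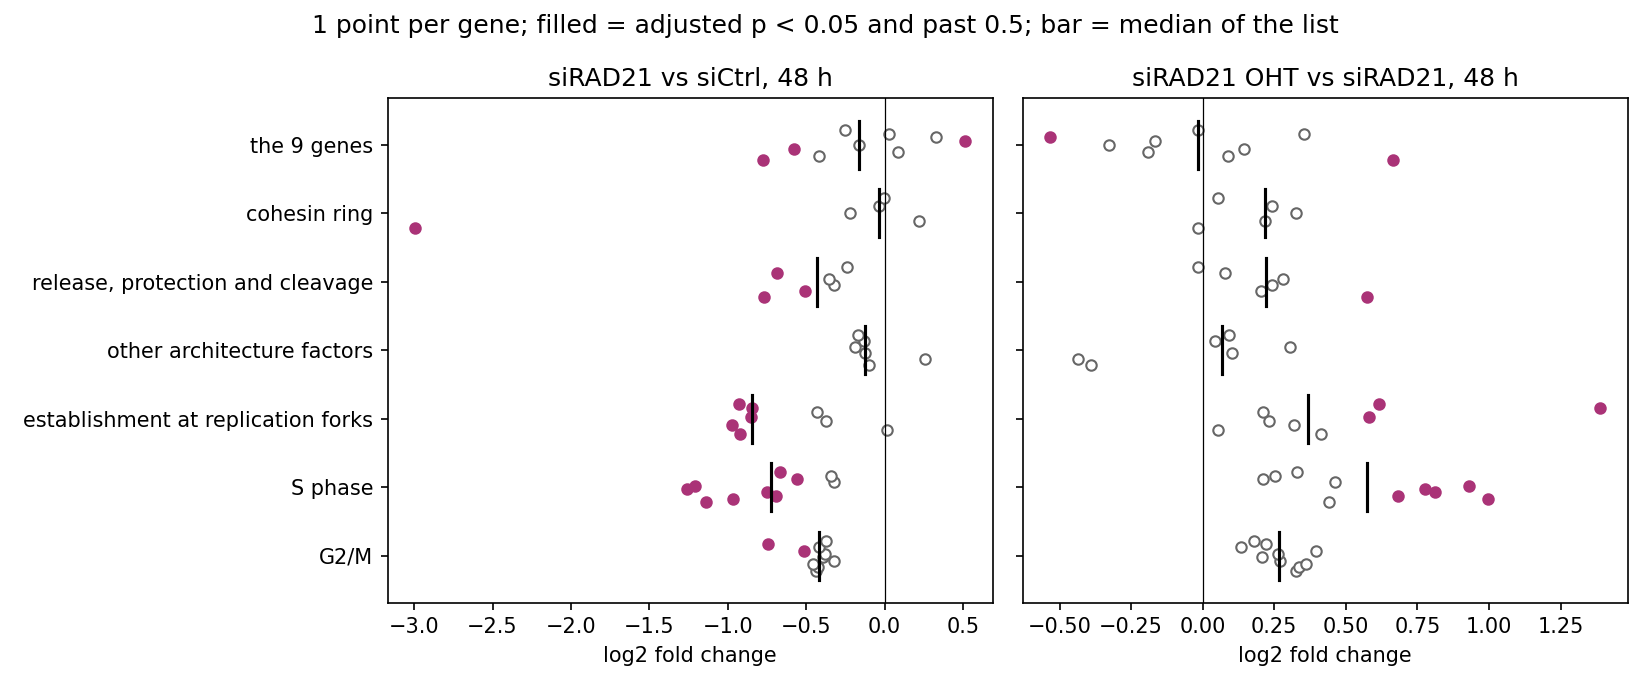
Log2 fold change at 48 h (horizontal axes, on different scales) of each gene in the 9 genes and 6 other lists, for siRAD21 against siCtrl and siRAD21 OHT against siRAD21, with filled points for DEGs and a bar at the median of the list. Fork and S phase genes lie left of 0 with siRAD21 (medians -0.85 and -0.72) and right of 0 with OHT in siRAD21 cells (0.37 and 0.57), while the 9 genes spread to both sides (medians -0.17 and -0.02).

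The shifts changed the proportions of paired factors. The ratio of ESCO1 to ESCO2 in eRPKM had a mean of 0.665 in siCtrl cells at 48 h (0.596 to 0.749), 1.059 in siRAD21 cells (1.01 and 1.11) and 0.834 in siRAD21 OHT cells. In eRPKM ESCO1 thus exceeded ESCO2 in siRAD21 cells at 48 h and in no other group. This order depends on the exon lengths used (4623 bases for ESCO1 and 5534 for ESCO2). In reads ESCO1 was the lower in these libraries (1116 and 1041 against 1202 and 1238). The ratio of PDS5A to PDS5B was 4.99 in siCtrl (4.63 to 5.35), 6.14 in siRAD21 (5.81 and 6.47), 6.996 in siCtrl OHT (6.23 to 8.25) and 7.96 in siRAD21 OHT cells (7.73 and 8.19) at 48 h. The siCtrl libraries had the lowest values at that time. The ratio of MAU2 to NIPBL at 48 h was 0.494 in siCtrl (0.427 to 0.549), 0.568 in siRAD21 (0.516 and 0.619), 0.553 in siCtrl OHT (0.479 to 0.618) and 0.734 in siRAD21 OHT cells (0.700 and 0.769). The siRAD21 OHT libraries were above all others, which overlapped. At 24 h it was 0.594, 0.700, 0.6 and 0.811 in the same order, again highest in siRAD21 OHT cells. These ratios are of RNA and say nothing of protein, and they were not tested.

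**Figure D4:**
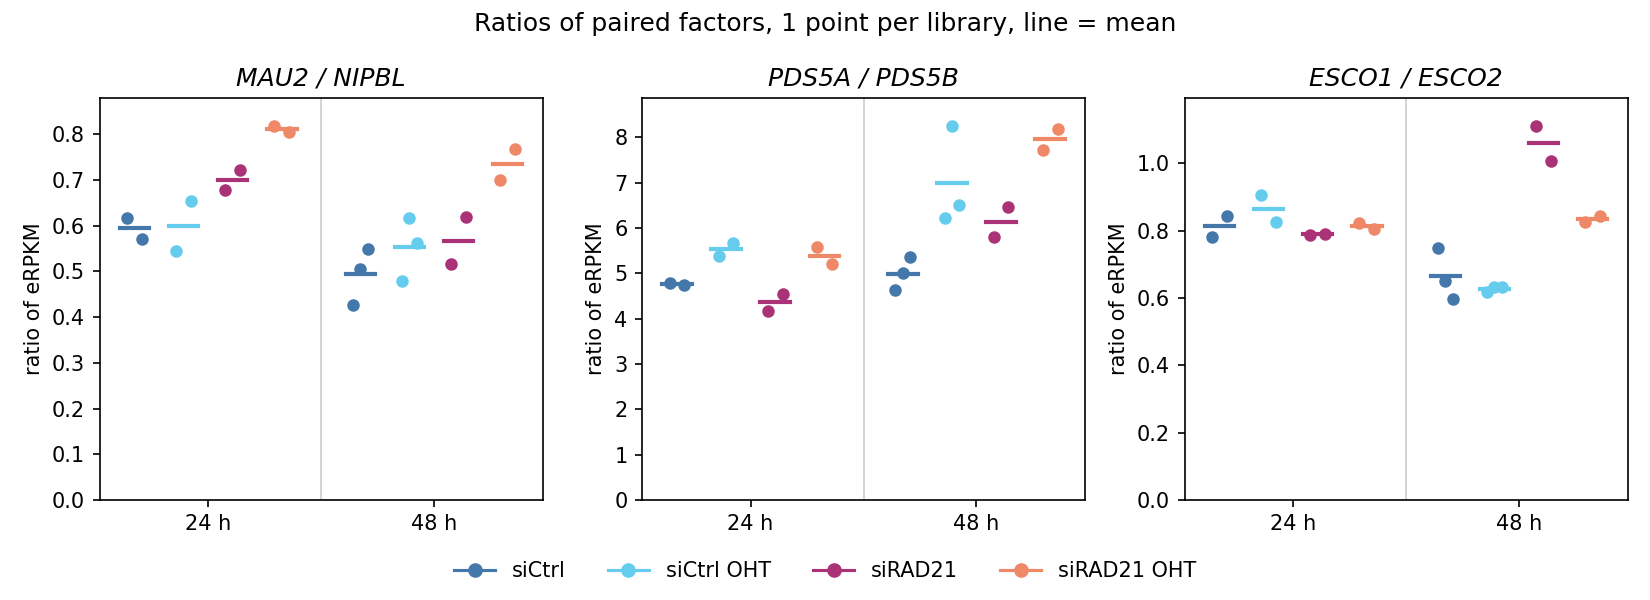
Ratio of eRPKM (vertical axes, each from 0) of MAU2 to NIPBL, PDS5A to PDS5B and ESCO1 to ESCO2 in each library, by group and time, with a line at the mean. ESCO1 to ESCO2 is above 1 in the siRAD21 libraries at 48 h (1.01 and 1.11), and PDS5A to PDS5B is highest on average in siRAD21 OHT cells at 48 h (7.96).

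The 9 genes did not vary as a block. Over the 18 libraries, which share groups and so are not independent, Pearson correlations of log2(eRPKM + 0.5) between members ran from -0.88 (PDS5A and HDAC8) to 0.71 (CDCA5 and ESCO2), and the loader partners NIPBL and MAU2 were at 0.49. Among all other genes tested, those most like CDCA5 were EBP (0.989), CDC6 (0.987) and MCM4 (0.986), and those most like ESCO2 were WDR76 (0.976), KIF11 (0.965) and LMNB1 (0.965). CDC6 and MCM4 license replication origins, and KIF11 is the motor that separates spindle poles. MAU2 was most like SFXN3 (0.968), CTCF most like ELOVL5 (0.967), PDS5A most like LRPPRC (0.983), NIPBL most like CHD2 (0.963), ESCO1 most like TRIP11 (0.953) and HDAC8 most like SNPH (0.951). PDS5B had no gene as close, the highest being CNTLN at 0.847.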

How the data were processed

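RNA was depleted of ribosomal RNA, made into libraries with an unstranded kit (TruSeq v2) and sequenced as 50-base reads. The authors masked low-quality bases, aligned the reads to hg19 with TopHat2 (2.0.8 in the submitters' processing notes, which also name featureCounts 1.4.5 and SAMtools), removed PCR duplicates and deposited eRPKM values, an RPKM over exons, for 23399 genes. The authors called DEGs with DESeq2, a model of counts. Here, since eRPKM is normalized, limma 3.58.1 in R 4.3.3 was fitted to log2(eRPKM + 0.5) of all 18 libraries, with a mean for each of the 8 groups, a variance trend, no block, and Benjamini-Hochberg adjustment over the 14993 genes with a mean of at least 1 eRPKM. Thresholds were those of the study: adjusted p below 0.05 and log2 fold change past 0.5.

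Whole reads were recovered from the values for 21260 of the 23399 genes (90.9%, within 0.01 reads), which gave depths and the input for voom, and the precision behind each level. Intervals at 95% are confidence intervals of a difference between group means, from a variance pooled over the 8 groups. They do not give the spread of the libraries within a group. Same-numbered siCtrl and siCtrl OHT libraries at 48 h deviated together from their group means, but weakly (r = 0.258, 0.130 and 0.157). For siRAD21 and siRAD21 OHT libraries at 48 h r was 0.026. The labels give replicate numbers and do not say that these mark pairs, so the replicate block assumes it. Groups came from the labels. The 9 genes, the lists, the motifs and the tests were chosen with earlier results of these data known. Named from a list are the DEGs of largest fold change at 48 h, up to 4, and WAPL always. Alternatives were other pseudocounts, filters, scalings, thresholds and variance models, a replicate block, leaving out each library, and, chosen after seeing the data, voom, undoing duplicate removal and a crossed block. Gene positions are from the GRCh37 annotation. Tables were read with pandas 2.3.3 and numpy 2.4.6 in Python 3.11.15 and drawn with matplotlib 3.10.9.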

Additional observations from a re-analysis of the deposited data

Results flagged for a closer look

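Of the 9 genes, CDCA5 and ESCO2 had effects that differed between groups, 2 of 9 where 17.3% of all genes passed for the interaction at 48 h and 21.6% for the difference between the times. The response to OHT at 48 h differed between siRAD21 and siCtrl cells by 0.47 for CDCA5 and by 0.28 for ESCO2, by the interaction term of the limma fit. The effect of siRAD21 at 48 h differed from that at 24 h by -0.70 for CDCA5 and by -0.56 for ESCO2, by the difference of both contrasts in the same fit. The summed level of the 10 S phase genes at 48 h was 238 to 254 eRPKM in siRAD21 and 364 to 369 in siRAD21 OHT cells, where both genes rose. It was 409 to 423 in siCtrl and 435 to 455 in siCtrl OHT cells, where CDCA5 rose and ESCO2 fell. The part of S phase genes in these differences was not tested.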

How the results depend on the processing

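The 47 differences of the 9 genes with an adjusted p below 0.05 kept their sign under all 32 alternatives, 18 of which leave out a library. These differences were picked by their adjusted p in the same libraries, so a kept sign was likely from the start. Of the other 79 differences 28 changed sign under at least 1 alternative, and 0 of the 79 were DEGs under any. With no fold change threshold the count of DEGs among the 9 genes was 2 at 24 h and 6 at 48 h for the siRNA effect without OHT, 2 and 6 for that with OHT, 2 and 7 for the OHT effect in siCtrl cells, 1 and 6 for that in siRAD21 cells, 3 and 6 for both treatments against neither, and 2 for the interaction at 48 h and 2 for siCtrl cells at 48 against 24 h. With a threshold of 1 it was 0 at 48 h for the siRNA effect without and with OHT and the OHT effect in siRAD21 cells, and for the difference of the siRAD21 effect between the times. With quantile normalization it was 1 for siRAD21 OHT against siRAD21 and 0 for siRAD21 OHT against siCtrl OHT at 48 h. For siRAD21 OHT against siCtrl at 48 h it was 1 with a pseudocount of 0.1, with voom and with duplicate removal undone, and undoing it also gave 1 for the interaction at 48 h. Apart from the changes of threshold, these moves come from values of MAU2, CDCA5, NIPBL and HDAC8 close to 0.5.

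Leaving out each library gave 2 to 3 DEGs for siRAD21 against siCtrl, 1 to 2 for siRAD21 OHT against siRAD21, 0 to 1 for siRAD21 OHT against siCtrl and for the interaction at 48 h, 1 to 2 for the difference between the times, 1 to 1 for siRAD21 OHT against siCtrl OHT at 48 h and 0 to 0 elsewhere. The replicate block, which pairs libraries by number within a time, changed no DEG of the 9 genes: counts stayed at 3, 2, 1 and 2 in the comparisons with DEGs and at 0 in the others. By the adjusted p alone it added NIPBL in siRAD21 OHT against siCtrl at 48 h (-0.24, adjusted p = 0.0123), NIPBL in siRAD21 OHT against siRAD21 at 24 h (-0.22, 0.0379), ESCO2 in siRAD21 OHT against siCtrl at 24 h (-0.12, 0.0415) and PDS5B with OHT in siCtrl cells at 48 h (-0.22, 0.0399), and it lost ESCO1 in siRAD21 OHT against siRAD21 at 48 h (-0.19, 0.0598), by limma and Benjamini-Hochberg. Averaging the siRAD21 OHT 48 h libraries changed no DEG either, which concerns DEGs and not the adjusted p alone. At 24 h siCtrl numbers ran against those of siCtrl OHT (r = -0.134) and siRAD21 OHT (-0.169), and a block with the siCtrl 24 h numbers crossed, chosen after seeing the data, gave the same counts as the block.

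Over all genes, 0 were called for the interaction at 24 h, against 4 with the block, 8 with the crossed block, 5 without a filter on low values, 12 with quantile normalization and 19 with voom. Quantile normalization took the share of higher calls from 69.1% to 55.5% for siRAD21 and from 36% to 48.6% for OHT in siRAD21 cells at 24 h. A count model was not run on the deposited values, which are normalized. Duplicate removal limits CDCA5 most, and depth limits HDAC8, MAU2 and PDS5B.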
